A study of Mus musculus with 17 samples.

Results

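St8sia6 encodes a sialyltransferase, and the row of that name was followed across all 17 libraries of a study of Nfkbid in mouse regulatory T cells (Tregs). It is 1 row of 47643 in the deposited table and was chosen by its measured fall in transgenic libraries, so its transgenic values are given below as a description, without a test. Spleen CD4+ T cells were enriched and the Foxp3-GFP+ cells sorted, so every group carries a GFP reporter of Foxp3, the transcription factor that defines Tregs. The mice are of the NOD background, which is prone to autoimmune diabetes. The control group (Control NOD) had 6 libraries, the group labelled as Nfkbid knockout (NOD- Nfkbid-KO) had 5, and the group labelled as overexpressing it (NOD-60A Tg+) had 6. Nfkbid encodes a nuclear IkB protein that modulates NF-kB. Each control and knockout library pooled 2 samples and each transgenic library held 1, so pooling and the transgene cannot be told apart. The labels give 1 batch for all libraries. The GT numbers in the column names have separate ranges for transgenic and knockout libraries, while some controls are numbered among the transgenic ones. What these numbers stand for is not given. The sources used here do not give the promoter of the transgene, or the age and sex of the mice.

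Sialyltransferases move sialic acid from an activated donor, CMP-sialic acid, onto the ends of sugar chains in the Golgi. The St3gal and St6gal enzymes add it to galactose, the St6galnac enzymes to N-acetylgalactosamine, and the St8sia enzymes to a sialic acid that is already there. St8sia6 makes short chains of this last kind, mainly on O-linked glycans, and its products are bound by Siglec-E, an inhibitory receptor of myeloid cells. In T cells, sialic acids also shape adhesion and the binding of lectins to the cell surface.

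The St8sia6 gene (ENSMUSG00000003418) lies on the minus strand of chromosome 2, from 13651021 to 13794064 in GRCm38, and is protein coding. Its full-length transcript has 8 exons, the last of which, at 6270 bp, holds 81.8% of the exon bases of the gene. One annotated gene overlaps it, the antisense Gm37126, which shares 112 exon bases. Gm37126 held at most 3 counts in any library and 11 counts in all. The sources used here do not say whether counting used the strand, so reads of the shared bases cannot be assigned to one of the 2 genes.

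Library totals ran from 3133388 to 4726615 counts, and 3 counts made 0.635 to 0.957 CPM (counts per 1000000 counts of the library), the level that a count of 0 allows. Many rows held far less than the gene of that name would in most cells. B2m, Pkm and Tmsb4x were at 0 counts throughout, and Actb had at most 7. Rows named after ribosomal protein genes that start in the first 15 Mb of a chromosome had a median of 158.2 CPM, with 1 of 6 rows below 1 CPM. For starts from 15 to 50 Mb the median was 0.487 CPM, with 15 of 27 rows below 1 CPM and the highest at 410.4. Beyond 50 Mb it was 0.293 CPM, with 28 of 46 rows below 1 CPM and the highest at 183.3. St8sia6 starts at 13.7 Mb. The reads behind a row were not analysed here, so names are those of the table. Foxp3 held 316.9 ± 36.7 CPM in transgenic (SD, n = 6), 299.4 ± 62.2 in knockout (SD, n = 5) and 360.1 ± 18.8 in control libraries (SD, n = 6). The row of Nfkbid, the targeted gene, held 8.67 ± 1.18, 4.58 ± 2.64 and 4.75 ± 0.96 CPM in the same order. Its knockout range, 2.31 to 8.75 CPM, reached both below and above that of the controls, 3.20 to 5.74, so the row does not set the libraries labelled knockout apart from controls. Groups are called by their labels throughout.

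The protein-coding rows nearest to St8sia6 were examined for the same doubt. On the side of lower coordinates, 68.2 kb away, Vim, the intermediate filament vimentin, held a mean of 1683 CPM over the 17 libraries. Trdmt1, an RNA methyltransferase, held 5.95 CPM, and Cubn, an endocytic receptor of kidney and gut, 0.528 CPM. On the other side Hacd1, a fatty acid elongation enzyme of muscle, held 0.037 CPM, Stam, an endosomal sorting adaptor, 92.1 CPM, and Tmem236 was at 0 counts in every library. Of the neighbours only Vim, Stam and Trdmt1 had enough counts to be tested. For transgenic against control, where 7.4% of all rows were called, none of them was called. The log2 fold change was -0.23 (adjusted p = 0.473) for Vim, -0.06 (adjusted p = 0.887) for Stam and -0.36 (adjusted p = 0.506) for Trdmt1. None of these rows was called for knockout against control either, where 1.89% of all rows were called. The values were 0.41 (adjusted p = 0.130) for Stam, -0.16 (adjusted p = 0.565) for Vim and -0.48 (adjusted p = 0.296) for Trdmt1.

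The 6 control libraries held St8sia6 at a nearly constant level. Replicates 1 to 6 had 404.5, 411.2, 400.6, 423.0, 445.2 and 407.3 CPM, from 1354 to 1912 counts, with a mean of 415.3 ± 16.5 CPM (SD, n = 6). The highest control was 1.11 times the lowest. On the log2 scale the SD was 0.05, where the median row had 0.20. Only 0.67% of the 6969 rows whose average log2 CPM reached 3 varied less among controls.

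All 6 transgenic libraries lay below all 6 controls. Their replicates 1 to 6 had 100.1, 128.3, 191.6, 202.9, 202.5 and 139.9 CPM, from 337 to 669 counts, with a mean of 160.9 ± 43.9 CPM (SD, n = 6). Replicates 3, 4 and 5 were close together near 200 CPM, and replicates 1, 2 and 6 were lower. The lowest control was 1.98 times the highest transgenic library, which gives the distance between the groups. The log2 fold change of transgenic against control was -1.31 (SE 0.19), or 2.49 times lower. This difference chose the row and carries no test. In 29 alternatives of the processing it ran from -1.39 to -1.23.

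Knockout libraries were spread over the range of both other groups and beyond it. Replicates 1 to 5 had 487.0, 161.4, 319.2, 492.1 and 195.9 CPM, from 577 to 1726 counts, with a mean of 331.2 ± 156.1 CPM (SD, n = 5). Replicates 1 and 4 lay above every control, replicate 3 between the controls and the transgenic libraries, and replicates 2 and 5 inside the transgenic range. The highest knockout library was 3.05 times the lowest. The SD on the log2 scale was 0.60 in knockout and 0.34 in transgenic libraries, where the median row had 0.37 and 0.26. St8sia6 varied more among knockout libraries than 80.1% of rows.

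**Figure D1:**
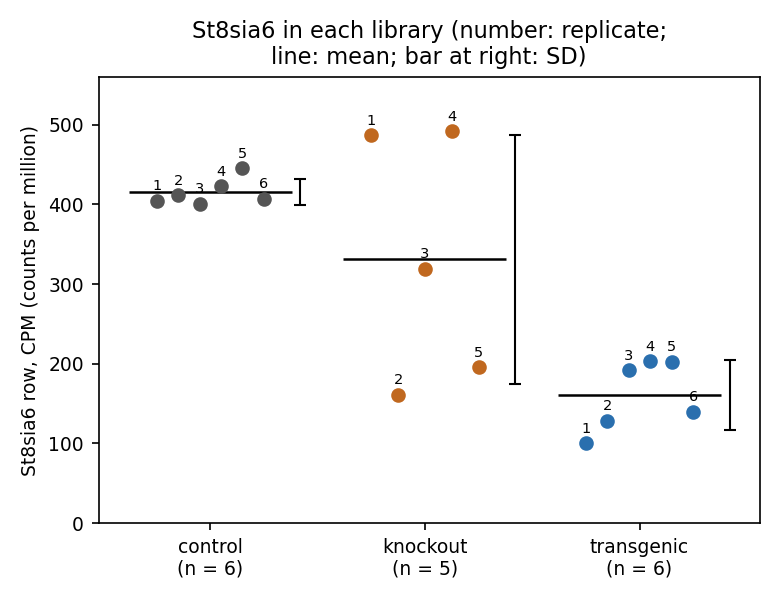
St8sia6 in CPM (vertical axis) for each of the 17 libraries, by group, with replicate numbers, the mean as a line and the SD as a bar. Controls sit between 400.6 and 445.2 CPM, transgenic libraries between 100.1 and 202.9, and knockout libraries from 161.4 to 492.1.

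Knockout against control is the comparison that the choice of the row did not use, although it shares the controls with the one that did. St8sia6 was not called: its log2 fold change was -0.24 (SE 0.20, 95% interval -0.65 to 0.17, adjusted p = 0.479 by edgeR's quasi-likelihood test over 9986 rows). In that comparison 1.89% of the rows tested were called. An exact two-sided permutation test over the 462 splits of 5 and 6 libraries gave p = 0.199, for a difference of -0.47 in mean log2(CPM + 1). By mean level the order was control, knockout, transgenic, and its first 2 groups did not differ beyond their spread, which does not show that they are alike. Single libraries moved the value: it was -0.09 without knockout replicate 2, -0.13 without replicate 5, -0.38 without replicate 1 and -0.39 without replicate 4. Adjusted p over the 29 alternatives ran from 0.176 to 0.845, and none gave a call.

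The knockout libraries with the lowest St8sia6 were also those with the fewest rows detected. Replicates 2, 3 and 5 had 13615, 13476 and 13802 rows above 0 and a mean St8sia6 level of 225.5 CPM. Replicates 1 and 4 had 15039 and 15931 rows and a mean of 489.6 CPM. Without replicates 2, 3 and 5 the log2 fold change of knockout against control was 0.23 (SE 0.16, adjusted p = 0.798), so the direction turned. Transgenic libraries had 15801 to 16705 rows above 0 and controls 15815 to 17379, in ranges that overlap. Mitochondrial rows took 22.04% of counts in the first and 22.55% in the fourth knockout replicate, and 25.3% to 28.2% in the other 3. The part of rows detected and mitochondrial share in the knockout values was not tested.

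**Figure D2:**
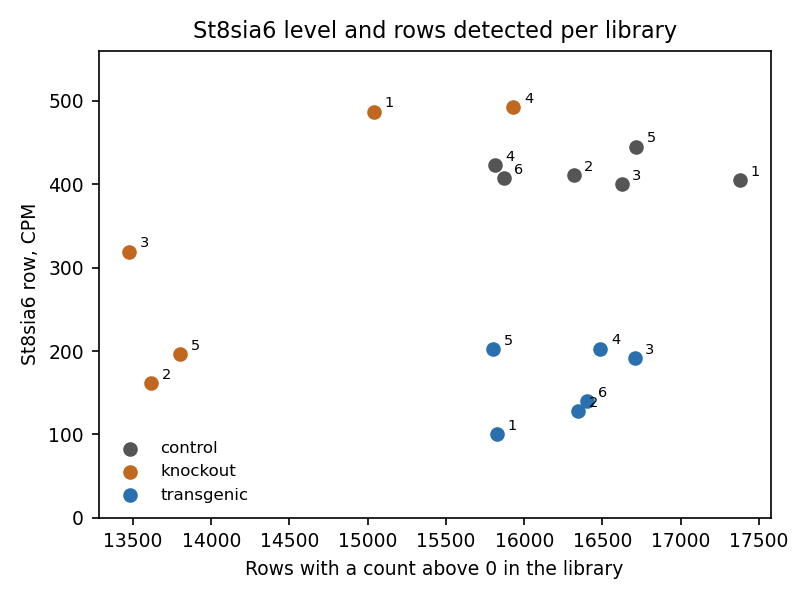
St8sia6 in CPM (vertical axis) against the number of rows with a count above 0 (horizontal axis) in each library, coloured by group and numbered by replicate. Knockout replicates 2, 3 and 5 lie at 13476 to 13802 rows and at most 319.2 CPM, while transgenic libraries are low at 15801 to 16705 rows.

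Transgenic against knockout had a log2 fold change of -1.08 (SE 0.20), or 2.11 times lower in transgenic libraries, given without a test because the same transgenic libraries chose the row. Here the groups overlapped, since knockout replicates 2 and 5 were below the highest transgenic libraries. Leaving out 1 library at a time gave -1.23 to -0.92. Without knockout replicates 2, 3 and 5 it was -1.54. Both contrasts of the transgenic group share its 6 libraries, and the contrast of knockout with control shares the controls.

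**Figure D3:**
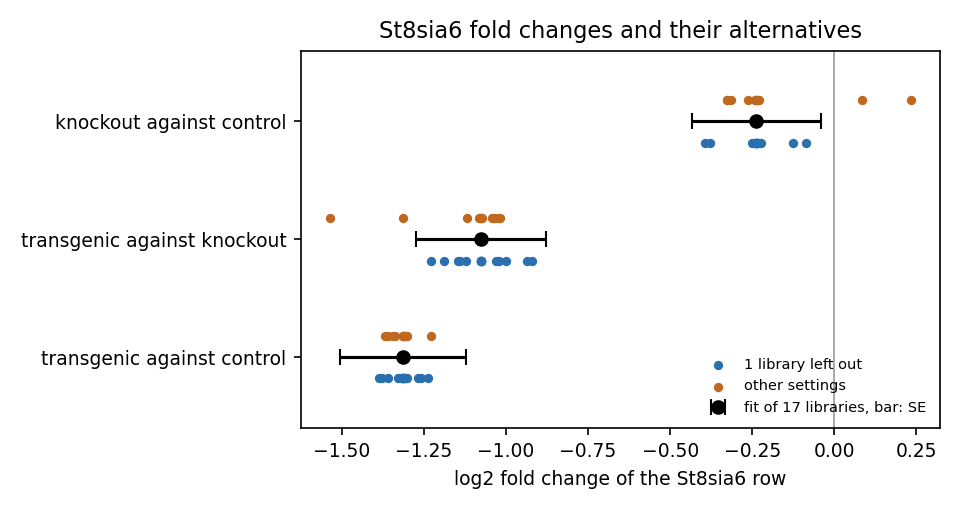
Log2 fold change of St8sia6 (horizontal axis) in the 3 comparisons, with the fit of 17 libraries as a black point with its SE, the values with 1 library left out in blue and the other settings in orange. Both transgenic comparisons stay below -0.92, while knockout against control runs from -0.39 to 0.23.

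St8sia6 was compared with the other sialyltransferases of the mouse to see how much of the family is present. Of 20 family rows, 9 had enough counts to be tested, St8sia6 among them. Per kilobase of exon, St8sia6 had the second highest mean of the 20 rows at 39.2 CPM per kb, below St6galnac2 at 52.4. St3gal2 followed at 16.2 CPM per kb, St6gal1 at 8.03, St8sia4 at 5.04 and St6galnac4 at 2.59, while St3gal1, St6galnac6 and St8sia1 were below 0.8. Within the St8sia subfamily, St8sia4, a polysialyltransferase, and St8sia1, which makes the ganglioside GD3, were tested, St8sia2 had at most 2 counts, and St8sia3 and St8sia5 had 0 in every library. Other than St8sia6, every family row starts at 23.2 Mb of its chromosome or further, where over 1 in 2 of the ribosomal protein rows were below 1 CPM.

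**Figure D4:**
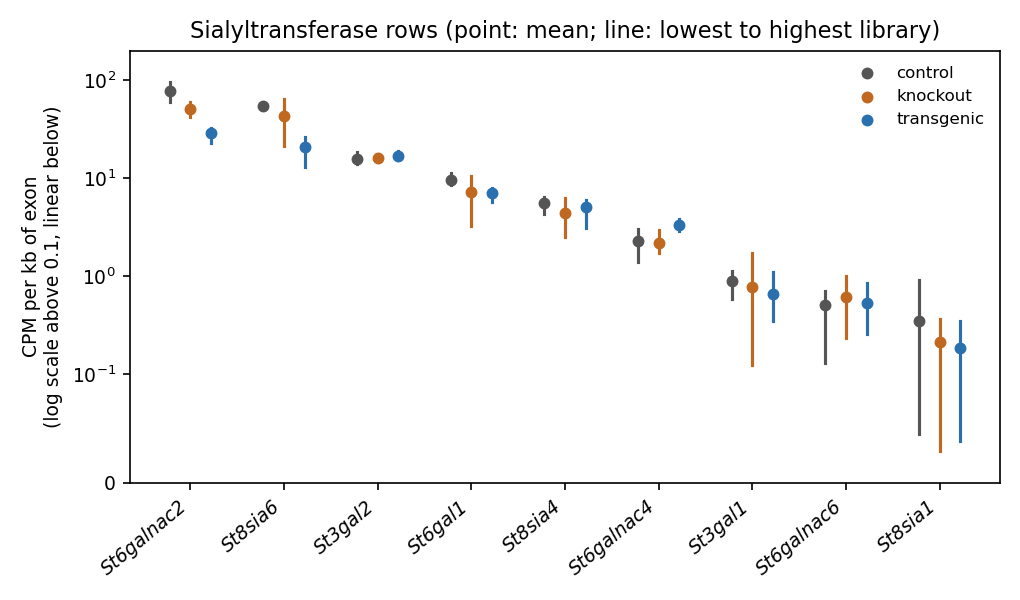
CPM per kb of exon (vertical axis, log scale above 0.1 and linear below) of the 9 sialyltransferase rows tested, with the mean of each group as a point and the lowest to highest library as a line. St6galnac2 and St8sia6 are the highest rows, and in both the transgenic libraries lie below the controls.

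Of the 8 other family rows tested, 1 was lower and 0 higher for transgenic against control, where 7.4% of all rows were called. The count was 3 with only the 2 groups compared or without knockout replicates 2, 3 and 5, and 2 with the replicate number as a block or without the 3 libraries of lowest TMM factor (TMM scales libraries to each other). Their median log2 fold change was -0.23, against -0.01 over all rows. The called row was St6galnac2, which attaches sialic acid to N-acetylgalactosamine of O-linked glycans. It held 165.7 ± 22.9 CPM in transgenic libraries (SD, n = 6), from 132.8 to 188.6. Knockout libraries had 294.2 ± 46.7 CPM (SD, n = 5), from 242.9 to 348.5, and controls 448.6 ± 80.9 CPM (SD, n = 6), from 343.4 to 556.7. The transgenic range was below both others, and the knockout and control ranges met only at their ends. St6galnac2 fell by 1.37 (SE 0.11, adjusted p = 2.6e-08) on the log2 scale for transgenic against control. For knockout against control, where 1.89% of all rows were called, it fell by 0.48 (adjusted p = 0.029) and was the only family row called. That call was lost in 11 of 29 alternatives, among them leaving out control replicate 1, 2, 3 or 4 or, of the knockouts, replicate 2, 3 or 5, and without knockout replicates 2, 3 and 5 together the adjusted p was 0.452. For transgenic against knockout, where 10.7% of all rows were called, St6galnac2 was again the only one of the 8, with a log2 fold change of -0.89 (adjusted p = 1.1e-05). There the count was 3 without knockout replicates 2, 3 and 5 and 2 without the libraries of lowest TMM factor.

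The St8sia4 row held 100.7 ± 20.4 CPM in transgenic (SD, n = 6), 89.3 ± 33.7 in knockout (SD, n = 5) and 111.9 ± 13.6 in control libraries (SD, n = 6), and was not called in any comparison. St3gal2, which sialylates galactose of O-linked glycans and glycolipids, held 84.7, 80.1 and 79.6 CPM in the same order and was not called. The median of the 8 rows was -0.18 for knockout against control and -0.15 for transgenic against knockout, against -0.02 and 0 over all rows.

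Genes that supply and remove sialic acid form the next group, with 11 of 14 rows tested. For transgenic against control 1 was higher and 2 were lower, where 7.4% of all rows were called, with a median of 0.10. Cmas, which makes the donor CMP-sialic acid, held 63.5 ± 7.58 CPM in transgenic (SD, n = 6), 68.8 ± 16.9 in knockout (SD, n = 5) and 95.8 ± 8.69 in control libraries (SD, n = 6). It fell by 0.53 (adjusted p = 0.003) for transgenic against control, with -0.36 (adjusted p = 0.090) for knockout against control and -0.17 (adjusted p = 0.401) for transgenic against knockout. Cmah, which converts the donor to its glycolyl form, fell by 0.43 (adjusted p = 0.023). That call was lost in 4 of 29 alternatives, among them without transgenic replicate 2 or 5 or control replicate 1. Siae, an esterase that removes acetyl groups from sialic acid, rose by 0.62 (adjusted p = 0.007) and was higher by 0.75 (adjusted p = 0.002) for transgenic against knockout. For transgenic against knockout 2 rows were higher and 0 lower, where 10.7% of all rows were called, with a median of 0.05, the other being Neu3, a sialidase of the plasma membrane, at 0.40 (adjusted p = 0.024). The Neu3 call was lost in 6 of 29 alternatives, among them without transgenic replicate 3 or without knockout replicate 2 or 3. Without knockout replicates 2, 3 and 5 together its adjusted p was 0.236. For knockout against control edgeR and limma called 0 of 11 rows and DESeq2 2, where edgeR called 1.89% of all rows, with 4 at an unadjusted p under 0.05 and a median of -0.10. First by p was Casd1, the sialic acid acetyltransferase, with a log2 fold change of 0.66 (adjusted p = 0.054).

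Of the 9 Siglec rows, receptors that bind sialic acid, 3 were tested. Siglecg, a receptor best known from B cells, held 19.1 ± 4.72 CPM in transgenic (SD, n = 6), 24.5 ± 5.74 in knockout (SD, n = 5) and 11.9 ± 0.77 in control libraries (SD, n = 6). It rose by 0.77 (adjusted p = 0.031) for transgenic and by 1.19 (adjusted p = 0.005) for knockout against the same controls. The first call was lost with limma, without transgenic replicate 1 or without control replicate 2, 3, 4 or 5, and the second without knockout replicates 2, 3 and 5 (adjusted p = 0.208). Siglece, the receptor for St8sia6 products, held 10.9, 14.9 and 12.1 CPM in transgenic, knockout and control libraries and was not called. For transgenic against knockout, where edgeR called 10.7% of all rows, edgeR, DESeq2 and limma called 0 of the 3. There 1 had an unadjusted p under 0.05, Siglece, at -0.52 (adjusted p = 0.194). The medians of the 3 rows were 0.23, 0.51 and -0.43 for transgenic against control, knockout against control and transgenic against knockout.

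Genes that build the O-linked glycans on which St8sia6 acts had 9 of 16 rows tested. C1galt1, which makes the core galactose linkage, held 343.0 ± 17.9 CPM in transgenic (SD, n = 6), 362.7 ± 20.2 in knockout (SD, n = 5) and 375.6 ± 29.7 in control libraries (SD, n = 6). For transgenic against control, where edgeR called 7.4% of all rows, edgeR, DESeq2 and limma called 0 of 9. There 1 had an unadjusted p under 0.05, and the median was -0.19. For knockout against control, where edgeR called 1.89% of all rows, edgeR and limma called 0 and DESeq2 2. There 2 had an unadjusted p under 0.05, and the median was -0.04. By unadjusted p the first were Galnt1, which starts O-linked glycans, at -0.58 (adjusted p = 0.232) for transgenic, and B3gnt3, which extends them, at -0.77 (adjusted p = 0.075) for knockout. For transgenic against knockout, where 10.7% of all rows were called, 1 of the 9 was higher and 0 lower, with a median of -0.15. The higher row was Gcnt1, which branches the O-linked core, at 0.98 (adjusted p = 0.021). This call was lost in 4 of 29 alternatives, among them without knockout replicate 5, and without knockout replicates 2, 3 and 5 (adjusted p = 0.295).

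Markers of Treg state and of other cells were summed per library beside St8sia6. The list of 11 resting T cell markers, with Satb1, Lef1 and Tcf7 among them, summed to 345.4 to 536.4 CPM in the transgenic group, 391.9 to 694.0 in the knockouts and 530.8 to 795.7 in the controls. Knockout replicates 1 and 4, high in St8sia6, had 671.3 and 694.0 CPM, and replicates 2, 3 and 5 had 391.9, 495.3 and 467.4. Of its 10 tested members 0 were higher and 1 lower for transgenic against control, near the 7.4% called over all rows, and DESeq2 called 3. Their median was -0.44. The lower row was Satb1, a chromatin organiser of T cells, at -0.50 (adjusted p = 0.002). Between knockout and control, where edgeR called 1.89% of all rows, 0 were called by edgeR, DESeq2 or limma. In that comparison 2 had an unadjusted p under 0.05. For transgenic against knockout, where 10.7% of all rows were called, 1 was higher and 1 lower. Ccr7 was higher (2.77, adjusted p = 0.015) and Bcl2 lower (-0.59, adjusted p = 0.042). The Ccr7 row had an adjusted p in 28 of 29 alternatives, 2 of them without a call. The Bcl2 call was lost in 18 of 29 alternatives. Without knockout replicates 2, 3 and 5 neither call held (adjusted p = 0.055 for Ccr7 and 0.401 for Bcl2). Bulk libraries do not tell fewer cells of a type from less RNA per cell.

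The list of 11 effector Treg markers summed to 150.3 to 217.1 CPM in the transgenic group, 116.7 to 157.1 in the knockouts and 167.2 to 224.1 in the controls. Of its 4 tested members, Prdm1, which encodes the transcription factor Blimp-1, fell by 1.82 (adjusted p = 0.001) for knockout against control, where 1.89% of all rows were called. For transgenic against knockout, where 10.7% of all rows were called, Prdm1 and Irf4, a transcription factor of effector Tregs, were higher. Their log2 fold changes were 2.53 (adjusted p = 4.4e-06) and 0.66 (adjusted p = 0.015). The Irf4 call was lost without knockout replicates 2, 3 and 5 (adjusted p = 0.080). For transgenic against control, where edgeR called 7.4% of all rows, edgeR and DESeq2 called 0 of the 4 and limma 1. There 3 had an unadjusted p under 0.05. The 14 Treg identity rows summed to 2528 to 2711, 2387 to 2627 and 2370 to 2941 CPM in transgenic, knockout and control libraries, but its 10 tested members moved in both directions. For transgenic against control, where 7.4% of all rows were called, 4 rose and 1 fell. Ikzf2, a transcription factor, rose by 0.48 (adjusted p = 0.021) and Izumo1r, a folate receptor family member, by 0.58 (adjusted p = 7.8e-05). The ectonucleotidases Nt5e and Entpd1 rose by 0.50 (adjusted p = 6.7e-04) and 1.10 (adjusted p = 0.008). Nrp1, a semaphorin receptor, fell by 1.199 (adjusted p = 0.027), a call lost in 7 of 29 alternatives. That of Ikzf2 was lost in 3 of 29, among them without control replicate 2 or 3. Against knockout, where 10.7% of all rows were called, 4 were higher in transgenic libraries and 1 lower. The higher ones were Izumo1r (0.93, adjusted p = 3.0e-07), Nt5e (0.52, adjusted p = 7.8e-04), Entpd1 (2.66, adjusted p = 3.6e-06) and Ctla4, an inhibitory receptor (0.75, adjusted p = 0.021). The lower one was Nrp1 (-1.21, adjusted p = 0.025). This Nrp1 call was lost in 8 of 29 alternatives, with an adjusted p of 0.228 without knockout replicates 2, 3 and 5. The Ctla4 call was lost in 2 of 29, among them without knockout replicate 3. For knockout against control, where 1.89% of all rows were called, Ikzf2 was higher (0.53, adjusted p = 0.041). Izumo1r (-0.35, adjusted p = 0.048) and Entpd1 (-1.55, adjusted p = 0.010) were lower. The Ikzf2 call was lost in 19 of 29 alternatives, the Izumo1r call in 20 and the Entpd1 call in 2. Without knockout replicates 2, 3 and 5, which leaves 2 knockout libraries, only Entpd1 of these 3 was still called (-2.35, adjusted p = 0.007). The Entpd1 row was low, at 13.75, 2.01 and 6.59 CPM in transgenic, knockout and control libraries. Its lowest knockout value, 0.847 CPM, was at the level of 3 counts in knockout replicate 1, so its folds involving knockout libraries rest on values near that level.

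The 10 B cell markers summed to 155.7 to 283.1 CPM in the transgenic group, 148.9 to 271.5 in the knockouts and 213.0 to 329.6 in the controls, with Cd79b, Blk and Ebf1 at 0 counts throughout. The 12 markers of monocytes, macrophages and dendritic cells summed to 117.6 to 153.6, 119.2 to 153.8 and 117.7 to 138.8 CPM, with Xcr1 at 0. The 10 markers of CD8 T cells and NK cells summed to 7.13 to 33.3, 12.63 to 45.28 and 21.02 to 24.89 CPM, with Klra8 at 0. Conventional CD4 T cell markers (7 rows) summed to 59.1 to 109.2, 63.3 to 116.8 and 101.5 to 117.5 CPM. Erythroid and platelet markers (7 rows, 4 at 0) summed to at most 39.0 CPM in any library. On these 5 lists 3, 4, 3, 1 and 1 rows had enough counts to be tested, in the order given, so most of the markers could not be called. For transgenic against control, where 7.4% of all rows were called, edgeR, DESeq2 and limma called 0 rows on each list. In that comparison 1 row, on the monocyte list, had an unadjusted p under 0.05. Flt3, a receptor of dendritic cell progenitors on the monocyte list, held 4.81, 11.9 and 4.998 CPM in transgenic, knockout and control libraries. It was higher for knockout against control (1.40, adjusted p = 0.041; lost in 16 of 29 alternatives) and lower for transgenic against knockout (-1.35, adjusted p = 0.016). Ighm, the heavy chain of IgM on the B cell list, was higher for transgenic against knockout (2.70, adjusted p = 0.010), at 5.82 and 0.852 CPM. Without knockout replicates 2, 3 and 5 none of these 3 calls held (adjusted p = 0.225, 0.061 and 0.113). Between knockout and control, where edgeR called 1.89% of all rows, edgeR and limma called 0 of the 3 B cell rows tested and DESeq2 2. There 2 had an unadjusted p under 0.05. Since B2m is also at 0 in this table, a marker at 0 does not show that its cell type was missing. The part of resting markers, or of any other cell type, in the St8sia6 values was not tested.

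Rows with a pattern like that of St8sia6 were ranked by Pearson's r of log2 values over the 17 libraries, among 5733 rows. These r describe libraries that share depth and group, and the group difference that chose St8sia6 is part of them. Highest were Pkd1, a membrane protein of primary cilia, at 0.932, Ahnak, a very large scaffold protein, at 0.927, Znrf3, a ligase that removes Wnt receptors, at 0.921, Bmp8a, a secreted growth factor, at 0.919 and Zfhx2, a homeodomain protein, at 0.902. Ahnak, which starts at 9.0 Mb on chromosome 19, held 4602 ± 1130 CPM in transgenic (SD, n = 6), 6442 in knockout and 9410 in control libraries. Lowest were Sbno1, a helicase-like nuclear protein, at -0.968, Mfap5, a microfibril component, at -0.957, Blvrb, a biliverdin reductase, at -0.947, Cbx5, the heterochromatin protein HP1 alpha, at -0.933, and Pip4p1, a lipid phosphatase, at -0.929. Sbno1 held 294.8 ± 31.6 CPM in transgenic libraries (SD, n = 6), 154.8 in knockout and 152.2 in controls, so it was high where St8sia6 was low. Over the 14 libraries without knockout replicates 2, 3 and 5, r was 0.919 to 0.970 for the first 5 rows and -0.970 to -0.947 for the last 5.

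**Figure D5:**
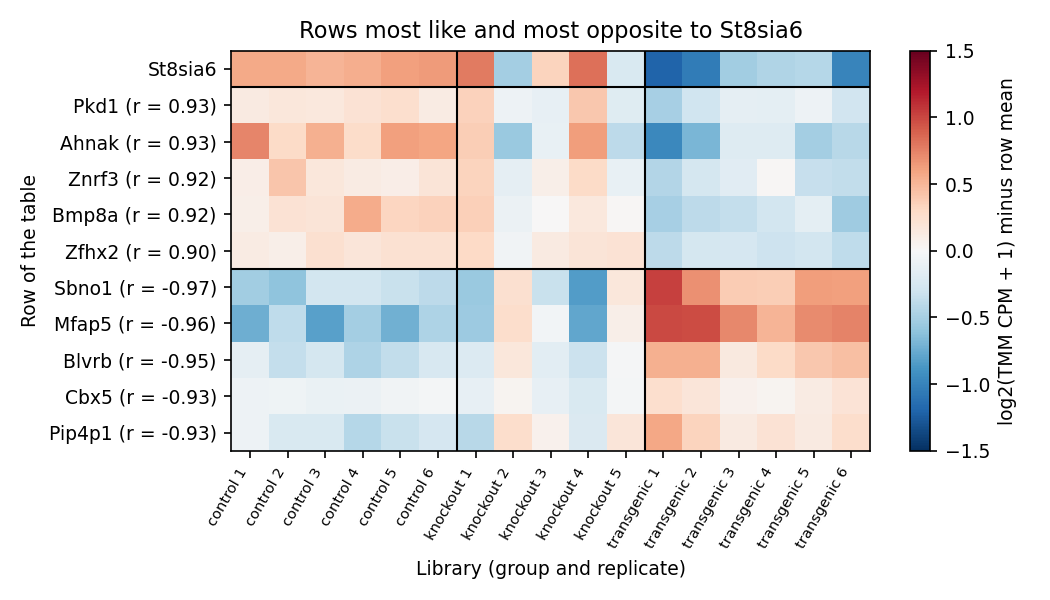
Log2(TMM CPM + 1) minus the mean of the row (colour) for St8sia6 and the 10 rows with the highest and lowest Pearson's r with it, over libraries ordered by group and replicate (horizontal axis). In Sbno1 all 5 knockout libraries (110.7 to 196.1 CPM) lie below all 6 transgenic ones (257.8 to 338.9), while in Ahnak the knockout range (3725 to 10140 CPM) overlaps both other groups.

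With the group means removed, so that the transgenic fall no longer enters, the highest r were those of Mgea5, which removes O-linked N-acetylglucosamine, at 0.951, Acad8, a mitochondrial dehydrogenase, at 0.950, Clec2l, a C-type lectin, at 0.949, Ints2, an Integrator subunit, at 0.943, and Dek, a chromatin protein, at 0.942. None of these 5 was called in any comparison. Over the 17 libraries as they stand their r was 0.487 to 0.675, and over the 14 without knockout replicates 2, 3 and 5 it was 0.548 to 0.757. St8sia6 varied most among knockout libraries (log2 SD 0.60, against 0.34 in transgenic and 0.05 in control), so these weigh most in this ranking. The r of deviations without knockout replicates 2, 3 and 5 was not computed. In this ranking 54 rows had an r above 0.9 and 22 below -0.9, against 6 and 19 in the first. The 5 rows of highest r in the first ranking had 0.615 (Zfhx2) to 0.869 (Ahnak) here, and the 5 of lowest r had -0.892 (Sbno1) to -0.777 (Blvrb). They were chosen over the same 17 libraries, so these values are a description.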

How the data were processed

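For each of the 17 libraries the authors deposited expected counts by gene. Reads of 67 bp with a 9 bp molecular identifier were aligned to GRCm38 with Bowtie2 and Ensembl 102 transcripts, per the series' design text; the sources used here do not say whether identifiers removed duplicates. The level allowed by 0 counts covers counting error only. Values (5.87% not whole) were rounded. Of 47643 rows 47224 matched GENCODE M21, the source of symbols and coordinates. CPM uses library totals.

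All 17 libraries entered 1 fit of edgeR 4.0.16 in R 4.3.3 (quasi-likelihood F test, TMM, filterByExpr, 9986 rows, Benjamini-Hochberg, threshold 0.05; "called" means past it). SE is the log2 fold change over the root of F. Library names carry a different identifier for each library, but the labels do not say that these are animals. For knockout against control, 64% of the rows simulated with a log2 change of 1 were recovered among 9986 rows. With a change of 2 it was 99%, and there were 6 false calls. The simulation gave every group the same spread, while the median row varied more among knockout libraries than among controls (log2 SD 0.37 against 0.20). Recovery and false calls in the data can therefore differ from these values. The smallest chi-square per degree of freedom between libraries of a group was 2.46, so none agreed within sampling noise.

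The row, the gene lists and the alternatives (DESeq2 1.42.0, limma 3.58.1 with voom, scalings, filters, a replicate block, left-out libraries) were chosen with earlier results of these data known. Named rows are St8sia6, its neighbours, the family, called list members (up to 4 per list and comparison, or that with the smallest p) and the 5 rows most like or unlike it, without predicted, clone-named and receptor-segment rows; called rows on the marker lists were chosen after their values were seen.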

Additional observations from a re-analysis of the deposited data

Results flagged for a closer look

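In 90 groups of values examined, 6 held a library far from the rest of its group by Dixon's test, where chance gives about 1 in 20. None of the 6 was a St8sia6 value. Transgenic replicate 1, which had the lowest St8sia6 level, stood apart with a TMM factor of 0.864, in St8sia4 with 61.8 CPM and in Zfhx2 with 265.7 CPM, each the lowest of its group. Transgenic replicate 5 stood apart in St3gal2 with 94.2 CPM, and control replicate 2 in Znrf3 with 366.7 CPM, each the highest of its group. Control replicate 1 stood apart in depth, with 4726615 counts.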

How the results depend on the processing

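St8sia6 stayed lower in transgenic libraries in all 29 alternatives of each comparison, with -1.39 to -1.23 against control and -1.54 to -0.92 against knockout. For knockout against control it ran from -0.39 to -0.09 when 1 library was left out, and turned to 0.23 without knockout replicates 2, 3 and 5 and to 0.085 without the 3 libraries with the lowest TMM factors (transgenic replicate 1 and knockout replicates 2 and 5), the latter chosen after seeing the data; the cause was not tested. With the replicate block it was -0.31 (adjusted p = 0.389). Between same-numbered libraries, r of the deviations from group means ran from -0.542 to 0.385. Without values for differently numbered libraries beside them, these r do not show whether the titles' numbers pair libraries. Library totals alone moved the median of all rows by -0.13 for knockout against control and St8sia6 to -0.33.

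Calls over all rows depended more on the settings. For knockout against control, 189 as reported, they were 571 with no filter, 574 with DESeq2, 76 with only the 2 groups, 67 with the replicate block, 43 without knockout replicates 2, 3 and 5, and 88 to 1124 with 1 library left out. They were 518, 806 and 1124 without transgenic replicate 1, knockout replicate 1 and knockout replicate 4, and 88 to 111 without control replicate 1, 3, 4 or 5 or, of the knockouts, replicate 2, 3 or 5. For transgenic against control, 739 as reported, they were 1226 with only the 2 groups, 1348 without knockout replicates 2, 3 and 5, 1281 without the 3 libraries with the lowest TMM factors, and 529 to 876 with 1 library left out. For transgenic against knockout, 1065 as reported, they were 632 with only the 2 groups, 670 with the replicate block, and 735 to 1641 with 1 library left out, the last without transgenic replicate 1.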
